A study of Homo sapiens with 8 samples.

Results

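Transcripts of 8 myeloid lineage transcription factors, SPI1, CEBPA, CEBPB, CEBPD, CEBPE, GFI1, RUNX1 and KLF4, were followed in MOLM13 cells after loss and return of the RNA-binding protein IGF2BP2. The members were chosen by symbol, all 8 were found among the 35370 genes listed, and all 8 passed the filter on low values that left 13030 genes tested. MOLM13 is an established human acute myeloid leukemia line that carries a KMT2A fusion, and messenger RNA was sequenced from 8 libraries. The control group had a wild-type genotype label, the knockdown group was labelled as depleted of IGF2BP2 by a short hairpin, the rescue group as given back IGF2BP2, and the mutant rescue group as given back a mutant of it, with 2 libraries each. The cells were infected with virus and selected with puromycin where needed. The mutation is not described in the sources used here, nor is any empty vector in control or knockdown cells, and the rescue groups carry 1 construct more than knockdown by their labels. All groups come from 1 cell line, and nothing says that the replicates were separate cultures, so p-values measure only how far these libraries lie apart, and that may be technical.

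These factors set the course of myeloid cells. SPI1 (PU.1), an ETS factor, and CEBPA, a basic leucine zipper factor, act together early in the lineage, and RUNX1 acts above both in blood stem and progenitor cells. CEBPE drives the later stages of granulocyte development and the genes of secondary granules, CEBPB and CEBPD respond to cytokines and inflammation, KLF4 favours monocytes, and GFI1 is a zinc finger repressor that favours granulocytes. IGF2BP2 binds RNA that carries N6-methyladenosine and is known to stabilise many of its targets.

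In GENCODE v29 (GRCh38) all 8 genes are protein coding. SPI1 lies on chromosome 11 at 47354860 to 47378576, CEBPE on chromosome 14 at 23117304 to 23119616, CEBPA on chromosome 19 at 33299934 to 33302564, GFI1 on chromosome 1 at 92474762 to 92486876, KLF4 on chromosome 9 at 107484852 to 107490482 and RUNX1 on chromosome 21 at 34787801 to 36004667, all on the minus strand. CEBPB lies on the plus strand of chromosome 20 at 50190734 to 50192689, and CEBPD on chromosome 8. CEBPA, CEBPB and CEBPD are single-exon genes, and CEBPE has 2 exons. CEBPA overlaps 2 annotated genes of the opposite strand, CEBPB overlaps CEBPB-AS1 and RUNX1 overlaps 7 annotated genes on either strand. The library protocol does not state strand, so reads of such pairs cannot be told apart.

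RefSeq start regions (GRCh38.p14) were searched for 6 of the 8 genes, with 9 start sites in all. No start region was matched for SPI1, and CEBPD was left out of the search, so whether RefSeq lists a start for it was not tested. The motif counts below cover these 6 genes only. The 250 bases before each start were searched on both strands for the SPI1 core GAGGAA, which was present before a start of 4 genes (4 of 9 windows) against 23.6% of all 35116 windows of that length. The matches are shown because they include CEBPE, the member with the steadiest difference between groups. All of them lie before a RefSeq start but inside the GENCODE bounds of their genes given above. Capitals mark the motif, each sequence is on the strand of its gene, 5′ to 3′, and the match in RUNX1 is to the opposite strand.

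CEBPE chr14:23119279-23119308: gcattgactacaGAGGAAggaaaaggaagc

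KLF4 chr9:107489806-107489835: tgggagaaggcgGAGGAAaaggctgtagcg

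GFI1 chr1:92483827-92483856: gtgggcagggagGAGGAAaggggcctgaga

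RUNX1 chr21:34888726-34888755: gagggaatggaaTTCCTCcggccgggctta

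The C/EBP motif TTGCNNAA, which overlaps none of the SPI1 matches, was found before 1 start, that of a GFI1 transcript, and in 9.05% of all windows. It is a palindrome there and reads the same on both strands. This match, too, lies inside the GENCODE bounds of GFI1.

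GFI1 chr1:92486223-92486252: cgcctggccacTTGCGCAAaggagcgcgcc

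The region before the CEBPA start is shown because CEBPA had the widest range of levels among the 8. It held none of the motifs searched, which besides both above were TGTGGT for RUNX factors, AAATCA for GFI1, CACCC for KLF factors and the interferon response element, present in 11%, 11.6%, 54.7% and 3.02% of all windows. The absence says only that these letters are not in this stretch.

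CEBPA chr19:33302565-33302784: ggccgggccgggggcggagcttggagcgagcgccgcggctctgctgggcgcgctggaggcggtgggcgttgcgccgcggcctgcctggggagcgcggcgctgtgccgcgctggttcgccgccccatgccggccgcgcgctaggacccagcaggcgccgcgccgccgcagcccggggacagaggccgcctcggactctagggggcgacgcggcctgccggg

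Values below are log2 normalized expression as the authors deposited it. Whether it was corrected for gene length is not stated, so levels are compared between libraries and not between genes. IGF2BP2 stood at 10.94 and 10.89 in control, 10.24 and 10.25 in knockdown, 11.36 and 11.13 in rescue and 11.03 and 10.68 in mutant rescue, lowest in both knockdown libraries (knockdown minus control -0.67, limma adjusted p = 0.0147). The replicates of mutant rescue lay farthest apart, with an SD of the log2 gap over genes of 0.303 against 0.148 in knockdown. Mutant rescue replicate 2 also had the highest mitochondrially encoded share, 0.948%, against 0.522% to 0.779% in the other 7 libraries. Interferon-stimulated genes were higher in both rescue groups, with a median difference from control of 5.69 over 14 genes in rescue and 3.66 in mutant rescue. All 10 markers fixed for the cell line passed the filter, while of markers of other cells 1 of 6 T cell, 1 of 5 B cell, 0 of 6 erythroid and 2 of 7 epithelial and fibroblast genes did.

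Of the 8 factors only CEBPE passed the test in knockdown against control, where 12.8% of all genes tested did. CEBPE alone was also called in rescue against control (7.18% of all genes, 4.91% higher and 2.27% lower), in mutant rescue against knockdown (11.3%) and between the rescue groups (10.5%). CEBPE and CEBPA were called in mutant rescue against control (24.9%, 13.9% higher and 11% lower). No member was called in rescue against knockdown, where 4.24% of all genes were, 3.22% higher and 1.02% lower. That count of 0 comes from limma with adjusted p under 0.05. The smallest unadjusted p among the 8 there was 0.138, for CEBPD. With 2 libraries a group, an exact permutation test of 1 gene could not go below p = 0.333. Comparisons named here share groups, so their differences are not separate evidence.

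**Figure D1:**
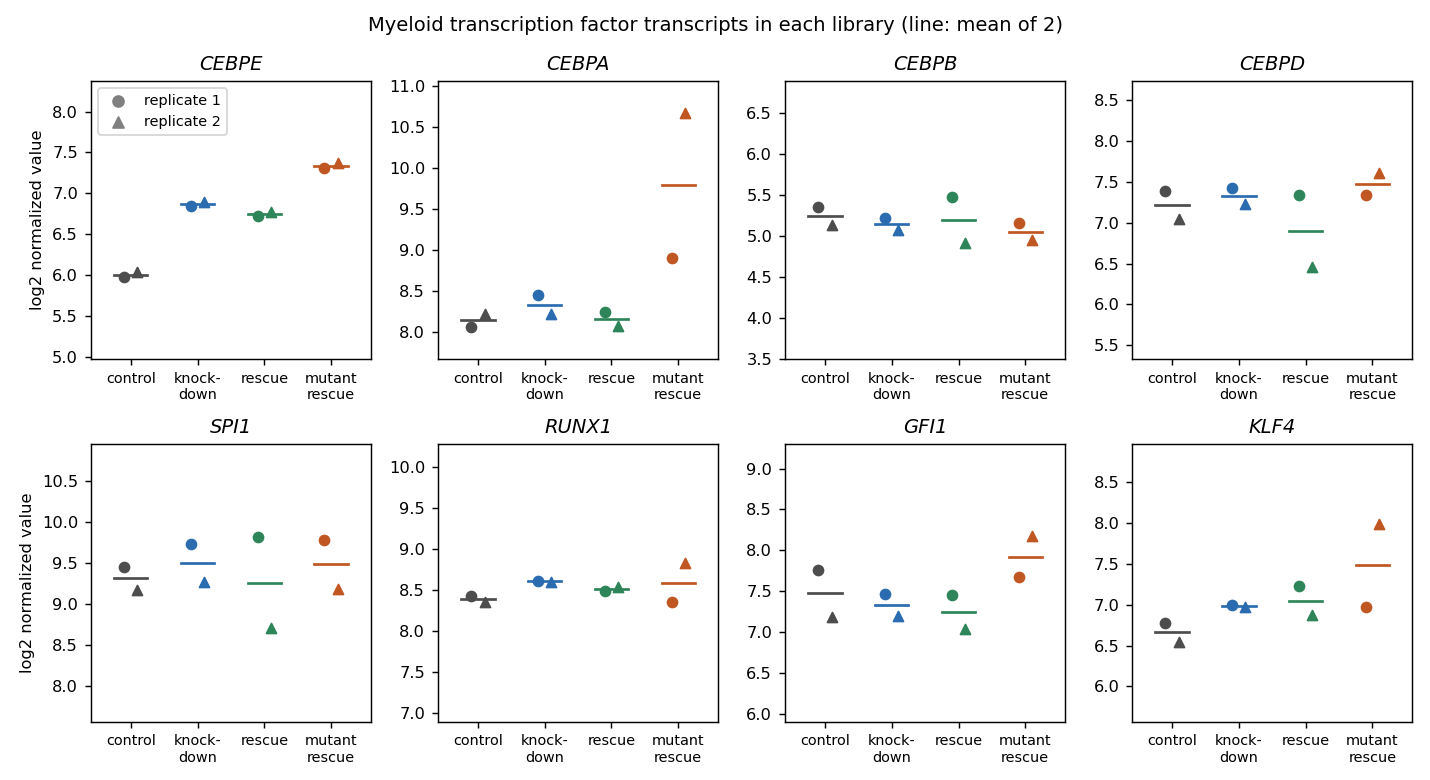
Log2 normalized value (vertical axis) of each of the 8 genes in the 8 libraries, by group (horizontal axis); circles are replicate 1, triangles replicate 2 and lines the mean of 2, and every panel spans the same range of log2 units. CEBPE parts all 4 groups with replicates almost on top of each other, CEBPA stands high in mutant rescue replicate 2 at 10.67, and SPI1 has replicate 1 above replicate 2 in all 4 groups.

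CEBPE, the granulocyte regulator, was higher in every group than in control. Its log2 values were 5.98 and 6.03 in control, 6.84 and 6.89 in knockdown, 6.72 and 6.77 in rescue and 7.31 and 7.37 in mutant rescue. No library of any group overlapped one of another group. Libraries also did not overlap in 64.1% of all genes tested in knockdown against control, 58.2% in rescue against knockdown, 63% in mutant rescue against knockdown, 58% in rescue against mutant rescue, 52.1% in rescue against control and 62.5% in mutant rescue against control, a common outcome with 2 libraries a group. By these library values CEBPE was 1.82-fold higher in knockdown than in control (log2 difference 0.86, SE 0.11, limma adjusted p = 0.00277), higher in 2 of 2 libraries. It was 1.67-fold higher in rescue than in control (0.74, SE 0.11, adjusted p = 0.00449) and 2.52-fold higher in mutant rescue than in control (1.33, SE 0.11, adjusted p = 0.000165). These 3 differences kept their call in each of the 8 fits that left out 1 library, with values of 0.83 to 0.89, 0.71 to 0.77 and 1.30 to 1.37.

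The return of intact IGF2BP2 did not take CEBPE back to control. Rescue differed from knockdown by -0.12 (SE 0.11, adjusted p = 0.587), with a 95% interval of -0.37 to 0.12, which does not reach the 0.86 that parts knockdown from control. From low to high the groups ran control, rescue, knockdown, mutant rescue, and only the neighbours rescue and knockdown were not told apart by the test. Mutant rescue exceeded knockdown by 0.47 (SE 0.11, adjusted p = 0.0344), and rescue was lower than mutant rescue by a difference of -0.60 (SE 0.11, adjusted p = 0.0140).

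The calls with mutant rescue other than that against control were near the threshold. The call of mutant rescue over knockdown held in 2 of the 8 fits that left out 1 library. Its adjusted p was 0.0509 and 0.0512 without the first or second control library, 0.190 and 0.205 without the first or second knockdown library, 0.0503 without rescue replicate 1 and 0.0847 without mutant rescue replicate 2. It was 0.0546 with libraries centred on their median. The call between the rescue groups was lost when either rescue library was left out (adjusted p = 0.0610 and 0.0777 without the first and the second). In fits of only the 2 groups compared both were lost (adjusted p = 0.0827 and 0.106). In all of these the sign stayed.

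In the authors' deposited table the log2 fold change of CEBPE was 1.96 for knockdown over control (adjusted p = 5.71e-05), 1.77 for rescue over control (0.00262) and 2.84 for mutant rescue over control (2.62e-10). The authors' deposited table gave 1.05 for mutant rescue over rescue (adjusted p = 0.0348) and 0.79 for mutant rescue over knockdown (adjusted p = 0.129). Of all genes listed, the authors' deposited table called 7.39% in knockdown over control, 3.01% in rescue over control, 6.2% in mutant rescue over control, 3.73% in rescue over knockdown, 2.91% in mutant rescue over knockdown and 2.83% in mutant rescue over rescue. The authors' deposited fold changes of CEBPE against control were larger than the differences of the library values, so the size of its change differs between the sources. In mutant rescue over control the same held, regardless of sign, for every member, as for KLF4 at 1.66 against 0.82. The reason was not tested.

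**Figure D2:**
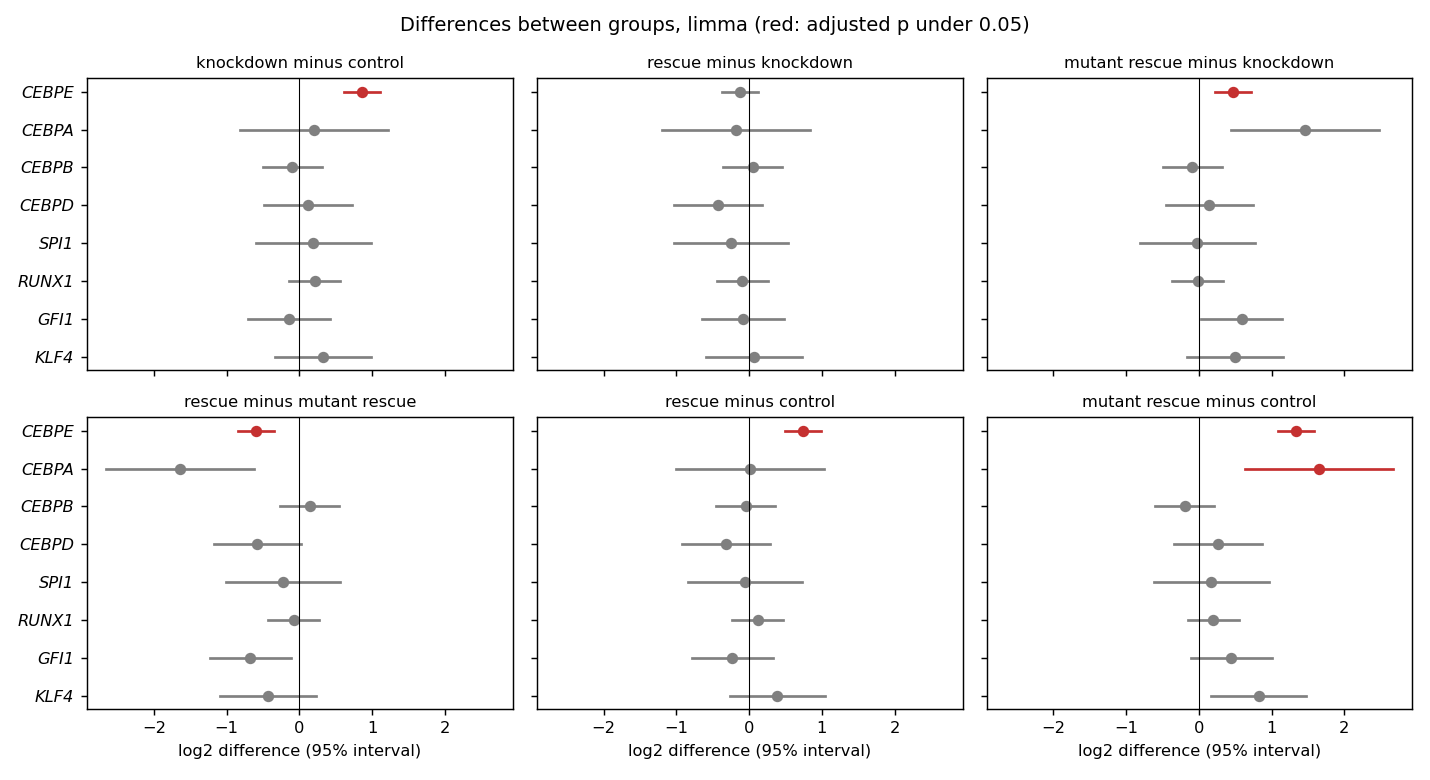
Log2 difference between groups (horizontal axis, with the 95% interval as a line) for each gene (vertical axis) in 6 comparisons, from limma over all 8 libraries; red marks an adjusted p under 0.05. CEBPE is red in 5 panels, CEBPA in mutant rescue minus control, and the intervals of SPI1 cross 0 in all 6.

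CEBPA, the factor that opens the granulocyte and monocyte course, was level in 3 groups and high in mutant rescue. Its log2 values were 8.06 and 8.21 in control, 8.45 and 8.21 in knockdown, 8.24 and 8.07 in rescue and 8.91 and 10.67 in mutant rescue. Both mutant rescue libraries lay above all 6 others, and the other groups overlapped. Mutant rescue libraries also did not overlap those of control in 62.5% of all genes, of knockdown in 63% and of rescue in 58%. The mutant rescue libraries were 1.76 apart, a gap wider than that of 99.9% of the genes tested. CEBPA was 3.14-fold higher in mutant rescue than in control (log2 difference 1.65, SE 0.45, adjusted p = 0.0289), higher in 2 of 2 libraries.

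The CEBPA difference depended in size on 1 library. Without mutant rescue replicate 2 it was 0.77 (adjusted p = 0.0141), and without mutant rescue replicate 1 it was 2.53 (adjusted p = 7.02e-05). It lost its call when either control library was left out (adjusted p = 0.138 and 0.103) or when genes were not filtered (0.0765). CEBPA differed by 1.46 in mutant rescue against knockdown (adjusted p = 0.0666) and by -1.63 in rescue against mutant rescue (adjusted p = 0.0518), both short of the threshold with all libraries. The latter passed without mutant rescue replicate 2 (-0.75, adjusted p = 0.0344), without mutant rescue replicate 1 (-2.52, adjusted p = 0.000209) and with median-centred libraries (-1.60, adjusted p = 0.0364). The former passed without mutant rescue replicate 1 (2.34, adjusted p = 0.000238) and was 0.57 without replicate 2 (adjusted p = 0.0799).

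Knockdown and control differed in CEBPA by 0.19 (SE 0.45, adjusted p = 0.814), with a 95% interval of -0.82 to 1.21 that leaves room for a change of either sign. In the authors' deposited table CEBPA had a log2 fold change of 2.55 for mutant rescue over control (adjusted p = 0.0542), so the authors' test did not call it. The mitochondrially encoded share was 0.948% in mutant rescue replicate 2, where CEBPA was highest, and 0.725% in replicate 1. It was 0.756% and 0.779% in the knockdown libraries, above mutant rescue replicate 1, while their CEBPA values were below it. Of 9 mitochondrially encoded genes 5 were called higher in mutant rescue than in control. Their part in the result was not tested.

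**Figure D3:**
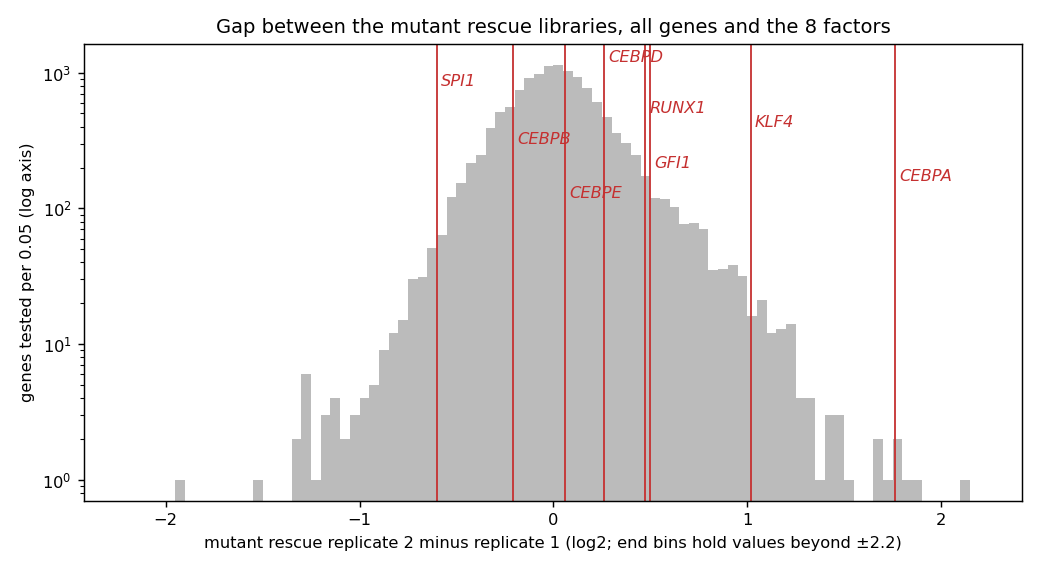
Number of tested genes (vertical axis, log scale) by the gap between the mutant rescue libraries, replicate 2 minus replicate 1 (horizontal axis, log2 units); red lines mark the 8 factors. CEBPA at 1.76 and KLF4 at 1.02 lie in the right tail, SPI1 at -0.60 in the left one and CEBPE at 0.06 near the centre.

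KLF4 and GFI1, like CEBPA, CEBPD, CEBPE and RUNX1, were highest in mutant rescue replicate 2. KLF4, the monocyte factor, stood at 6.78 and 6.55 in control, 7.00 and 6.98 in knockdown, 7.22 and 6.88 in rescue and 6.97 and 7.99 in mutant rescue. Control was the lowest group, with no overlap with the others, while knockdown, rescue and mutant rescue replicate 1 shared a range. Against control, libraries also did not overlap in 64.1% of all genes in knockdown, 52.1% in rescue and 62.5% in mutant rescue. Mutant rescue exceeded control by 0.82 (SE 0.29, adjusted p = 0.0687, 95% interval 0.16 to 1.48). That difference was 0.31 without mutant rescue replicate 2 (adjusted p = 0.251) and 1.33 without replicate 1 (adjusted p = 0.00165). In the authors' deposited table KLF4 had a log2 fold change of 1.66 for this comparison (adjusted p = 0.00609), which made it, with CEBPE, 1 of 2 members past the threshold there, against 6.2% of the genes listed. Knockdown differed from control by 0.32 (SE 0.29, adjusted p = 0.499) and rescue from knockdown by 0.07 (SE 0.29, adjusted p = 0.934).

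GFI1, the repressor, stood at 7.76 and 7.19 in control, 7.47 and 7.20 in knockdown, 7.46 and 7.03 in rescue and 7.67 and 8.17 in mutant rescue. The first 3 groups overlapped, and mutant rescue overlapped control alone. Libraries did not overlap in 63% of all genes in mutant rescue against knockdown and in 58% in rescue against mutant rescue. The largest difference of GFI1 was -0.68 (SE 0.24) for rescue against mutant rescue, with adjusted p = 0.106 and a 95% interval of -1.23 to -0.12. It was called without mutant rescue replicate 1 (-0.93, adjusted p = 0.0412) and was -0.43 without replicate 2 (adjusted p = 0.359). Knockdown differed from control by -0.14 (SE 0.24, adjusted p = 0.747). In the authors' deposited table GFI1 had adjusted p = 0.0550 for mutant rescue over rescue, with a log2 fold change of 1.11.

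SPI1 (PU.1) had replicates far apart and no call in any comparison. Its log2 values were 9.45 and 9.17 in control, 9.74 and 9.27 in knockdown, 9.81 and 8.70 in rescue and 9.78 and 9.18 in mutant rescue. Replicate 1 was above replicate 2 in 4 of 4 groups, a pattern held by 7.48% of the genes tested, and every group overlapped every other. The group means spanned only 0.25, from knockdown (9.50 ± 0.33, SD, n = 2) to rescue (9.26 ± 0.79), while the SD between replicates was 0.486, larger than that of 99.3% of the genes tested. Knockdown minus control was 0.19 (SE 0.34, adjusted p = 0.758), with a 95% interval of -0.59 to 0.98. These libraries do not exclude changes of SPI1 within that interval, which is not a limit of detection.

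CEBPB, the inflammatory C/EBP factor, showed the same order of replicates. It stood at 5.36 and 5.13 in control, 5.22 and 5.07 in knockdown, 5.48 and 4.91 in rescue and 5.16 and 4.95 in mutant rescue. Replicate 1 was again the higher in 4 of 4 groups, and all groups overlapped. Its group means spanned 0.19, against a median of 0.37 over all genes tested, and 15% of genes had a smaller span. That span, from control to mutant rescue, was at a low level of 1.92 to 3.03 ppm of the linear total. For the same comparison the authors' deposited table gave a log2 fold change of -0.68, which the authors' test did not call (adjusted p = 0.559). Knockdown minus control was -0.10 (SE 0.18, adjusted p = 0.758, 95% interval -0.51 to 0.31).

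CEBPD stood at 7.39 and 7.04 in control, 7.43 and 7.23 in knockdown, 7.33 and 6.46 in rescue and 7.34 and 7.60 in mutant rescue. Rescue replicate 2 was the lowest library by a wide gap, and the other 7 lay between 7.04 and 7.60. The largest difference, -0.58 (SE 0.26) for rescue against mutant rescue, had adjusted p = 0.174 with a 95% interval of -1.18 to 0.03. It was called without rescue replicate 1 alone (-1.01, adjusted p = 0.0373). Knockdown minus control was 0.11 (SE 0.26, adjusted p = 0.817).

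RUNX1, the factor of stem and progenitor cells, varied least between groups beside CEBPB. Its log2 values were 8.43 and 8.36 in control, 8.61 and 8.60 in knockdown, 8.49 and 8.53 in rescue and 8.35 and 8.83 in mutant rescue. Knockdown lay above rescue and rescue above control without overlap, which in knockdown against control holds for 64.1% of all genes, and the mutant rescue libraries spanned the whole range. Knockdown minus control was 0.21 (SE 0.15, adjusted p = 0.401, 95% interval -0.14 to 0.56). Mutant rescue minus control was 0.20 (adjusted p = 0.369), and it was 0.43 without mutant rescue replicate 1 (adjusted p = 0.0271) and -0.04 without replicate 2 (adjusted p = 0.828).

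Set against all genes tested, 7 of the 8 factors had replicates farther apart than the median gene, whose SD was 0.117. The SDs were 0.635 for CEBPA, 0.389 for KLF4, 0.352 for CEBPD, 0.321 for GFI1, 0.234 for CEBPB and 0.171 for RUNX1, beside the 0.486 of SPI1. CEBPE was the exception at 0.0389, smaller than that of all but 3.08% of genes. Its group means spanned 1.33, a range 34.3 times its SD, whereas the ratio was 2.6 for CEBPA and 0.505 for SPI1.

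**Figure D4:**
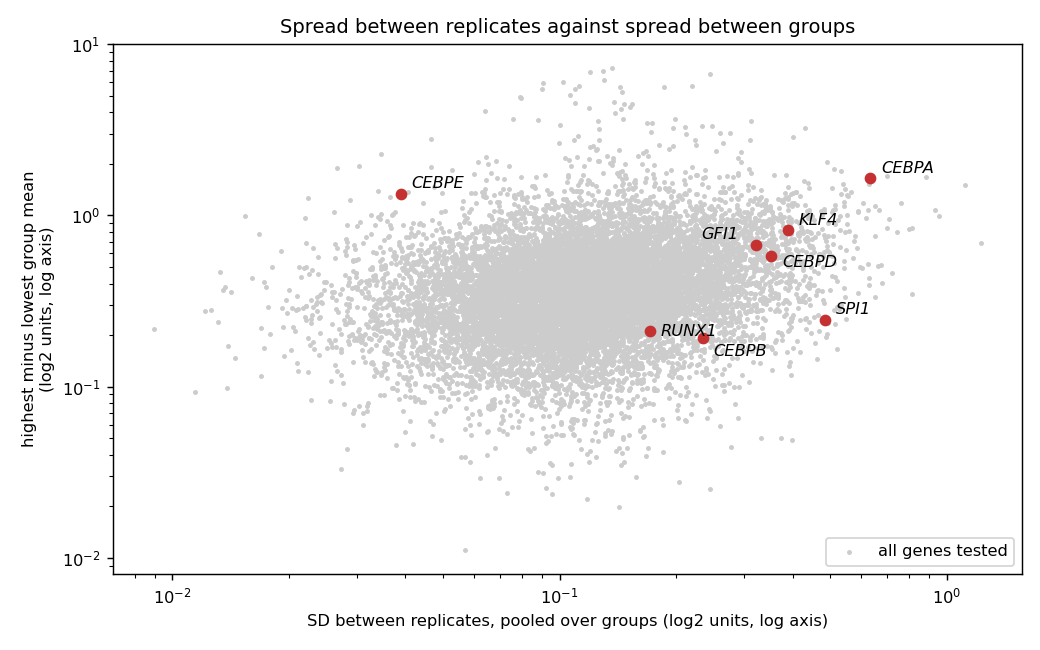
Highest minus lowest group mean (vertical axis, log2 units on a log scale) against the SD between replicates pooled over groups (horizontal axis, log2 units on a log scale); each grey point is a tested gene and red points are the 8 factors. CEBPE lies at the upper left with an SD of 0.0389, while SPI1 lies at the right with an SD of 0.486 and a range of 0.25.

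Likeness of pattern was measured as Pearson's r over the 8 library values, which share groups and libraries, and is given as a description. The genes most like CEBPE were GRN, which encodes progranulin (r = 0.997), the amino acid transporter gene SLC43A2 (0.994) and the sugar kinase gene NAGK (0.993). GRN had log2 values of 13.46 and 13.51 in control, 14.77 and 14.73 in knockdown, 14.56 and 14.51 in rescue and 15.43 and 15.40 in mutant rescue, the same order of groups as CEBPE. CEBPA was most like PWWP2B (0.993), the G protein gene GNAI2 (0.99) and the tropomyosin gene TPM2 (0.99). SPI1 was most like TNIP2 (0.987), POLRMTP1 (0.978) and ACAP3 (0.978), of which TNIP2 was at 8.62 and 7.59 in the rescue libraries.

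For KLF4 the nearest genes were ADRBK1 (0.983), MTHFD1L (0.979) and SH2B3 (0.972), for GFI1 CHMP4B (0.986), ZNF219 (0.977) and CKAP4 (0.973), and for RUNX1 the chromatin remodeller gene SMARCA2 (0.988), KLHDC10 (0.969) and PICALM (0.968). For CEBPD they were FAM219B (0.974), HDGFRP2 (0.966) and ATRN (0.959), and for CEBPB STARD7 (0.973), DHX32 (0.973) and a gene whose symbol the table holds as a number. Among the 8 factors themselves r was highest for CEBPA with KLF4 (0.884), KLF4 with RUNX1 (0.825), CEBPA with GFI1 (0.796) and CEBPD with GFI1 (0.794), and SPI1 had 0.766 with CEBPB and -0.0222 with CEBPA.

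Of 15 relatives and partners of the 8 factors, 12 were tested. In knockdown against control KLF10 rose by 0.53 (SE 0.12, adjusted p = 0.0231) and CEBPZ, a CCAAT-binding protein outside the leucine zipper family, fell by 0.63 on the log2 scale (SE 0.10, adjusted p = 0.00781), while 10 were not called. The list's median was -0.15 against 0.01 for all genes, of which 5.35% were called higher and 7.44% lower. In rescue against knockdown, where 3.22% of all genes were called higher, CEBPZ (0.65, adjusted p = 0.00967) and KLF6 (0.66, adjusted p = 0.00836) rose. In knockdown against control 0 of the 12 were called when control replicate 2 or either knockdown library was left out, and 1 with no filter. In rescue against knockdown 0 were called when either knockdown library or rescue replicate 1 was left out, and 1 without rescue replicate 2. In mutant rescue against control RUNX3 rose (0.84, SE 0.24, adjusted p = 0.0351). RUNX2 (-1.10, SE 0.20, adjusted p = 0.00546) and SPIB (-0.77, SE 0.13, adjusted p = 0.00407), a close relative of SPI1, fell. These 3 of 12 lay near the 24.9% of all genes called there. That count of 3 was 1 without control replicate 1, 7 without mutant rescue replicate 1, 5 with median-centred libraries and 6 after quantile normalization.

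Of 24 other monocyte and granulocyte regulators 21 were tested. In knockdown against control EGR2 rose (0.65, SE 0.15, adjusted p = 0.0275) and JUN fell (-0.65, SE 0.14, adjusted p = 0.0231), with a list median of 0.15. Of all genes 5.35% were called higher and 7.44% lower there. Of the 21, 0 were called without control replicate 1 or either knockdown library, 1 without control replicate 2 or with no filter, 4 with the replicate number in the fit, and 7 without either mutant rescue library or in a fit of only these groups. In mutant rescue against control 6 rose and 2 fell, with a median of 0.35 against 0.01 for all genes, of which 13.9% rose and 11% fell. FOS (0.78), EGR2 (1.13), FOSL2 (0.98) and TFEC (0.69) had the smallest adjusted p among those higher, from 0.00146 to 0.0113, and ZEB2 (-0.78, adjusted p = 0.00318) and ID1 (-0.39, adjusted p = 0.0313) fell. The count was 5 without either control library. In rescue against knockdown 0 of the 21 were called, against 4.24% of all genes.

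Of 12 tested stem and progenitor regulators 1 fell in knockdown, HOXA9 (-0.70, SE 0.09, adjusted p = 0.00389), which lost its call when either knockdown library was left out. HOXA9 rose by 0.49 in rescue over knockdown (adjusted p = 0.0259), a call lost without either knockdown or either rescue library, with no filter and after quantile normalization. LMO2 (1.17, adjusted p = 0.0108) and ETV6 (0.98, adjusted p = 0.0158) rose and HOXA9 (-0.60, adjusted p = 0.00324) fell in mutant rescue against control, a count of 3 that was 1 without control replicate 1. Of all genes tested 12.8% were called in knockdown against control, 4.24% in rescue against knockdown and 24.9% in mutant rescue against control. The 3 of 12 in the last comparison lay near that share. Of regulators of other blood lineages 4 of 12 were tested. PAX5, a B cell factor, was higher in rescue than in knockdown (0.62, SE 0.08, adjusted p = 0.00206). Its level was low, at 1.55 to 2.88 ppm of the linear total over the 8 libraries.

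Most tested genes on a list of known monocyte targets of SPI1 and the C/EBP factors were called higher in knockdown than in control, though this list holds genes already known to differ in these data and gives no separate support. Of 20 listed, 19 were tested. In knockdown against control 14 rose and 0 fell, with a median difference of 0.69 against 0.01 for all genes. Of all genes 5.35% were called higher and 7.44% lower in that comparison, and 13.9% higher in mutant rescue against control. The smallest adjusted p, from 0.000480 to 0.00195, were those of CYBB (1.99, SE 0.15), a subunit of the phagocyte oxidase, CSF1R (1.27, SE 0.14), the receptor for macrophage growth factor, the lysosomal CD68 (0.85, SE 0.10) and LYZ (1.92, SE 0.22), which encodes lysozyme. The mean log2 value over the 19 was 8.54 and 8.61 in the control libraries, 9.39 and 9.35 in knockdown, 9.19 and 9.24 in rescue and 9.53 and 9.56 in mutant rescue, the same order of groups as for CEBPE. The count of 14 was 9 without knockdown replicate 1 and 6 without knockdown replicate 2. In mutant rescue against control 14 rose, and 13 to 15 did in the fits that left out 1 library.

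In rescue against control 11 of the 19 rose and 0 fell, where 4.91% of all genes were called higher and 2.27% lower. The count was 6 without control replicate 1 or either rescue library, and 7 without control replicate 2, either knockdown library or the filter. Interferon-stimulated genes moved in the same comparison, and their part in the result was not tested. In rescue against knockdown, where 1.02% of all genes were called lower, VCAN alone fell (-0.78, SE 0.17, adjusted p = 0.0416). The list's median was -0.11. The count of 1 held in none of the 8 fits that left out 1 library: it was 0 without either knockdown or either rescue library and 2 without either control or either mutant rescue library. It was also 0 with no filter, 2 with the replicate number in the fit, and 3 after quantile normalization or in a fit of only these groups. Fewer or more cells at a given stage and less or more RNA per cell cannot be told apart in these bulk libraries.

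The list of C/EBP target genes of granules, which also holds receptor genes, had no common direction. Of 16 listed, 10 were tested, and 5 of these were not called in knockdown against control. Among those 5, the primary granule genes MPO, AZU1 and BPI, and CYBA, lay lower in both knockdown libraries than in either control library. IL6R, a receptor gene, lay higher in both. Libraries did not overlap in 64.1% of all genes there, and 5.35% of all genes were called higher and 7.44% lower. In knockdown the growth factor receptor gene CSF3R (1.11, SE 0.11, adjusted p = 0.00128) and CHI3L1 (1.02, SE 0.11, adjusted p = 0.00155) rose, and the primary granule genes CTSG (-0.82, SE 0.12, adjusted p = 0.00560), PRTN3 (-0.78, SE 0.14, adjusted p = 0.0116) and ELANE (-0.56, SE 0.14, adjusted p = 0.0356) fell. The count of 3 that fell was 0 without either knockdown library and 1 without control replicate 2. MPO, which encodes myeloperoxidase, rose in rescue over knockdown (0.62, SE 0.10, adjusted p = 0.00851), as did PRTN3 (0.66, adjusted p = 0.0397), and both calls were lost without either knockdown or either rescue library. LTF, LCN2 and CAMP, secondary granule genes that CEBPE is known to drive, stayed under the filter in every group. LTF, which encodes lactoferrin, stood at -2.09 in all 8 libraries and LCN2 between -1.38 and -1.34. CAMP lay between 2.26 and 2.44, a share of 0.333 to 0.376 ppm of the linear total.

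**Figure D5:**
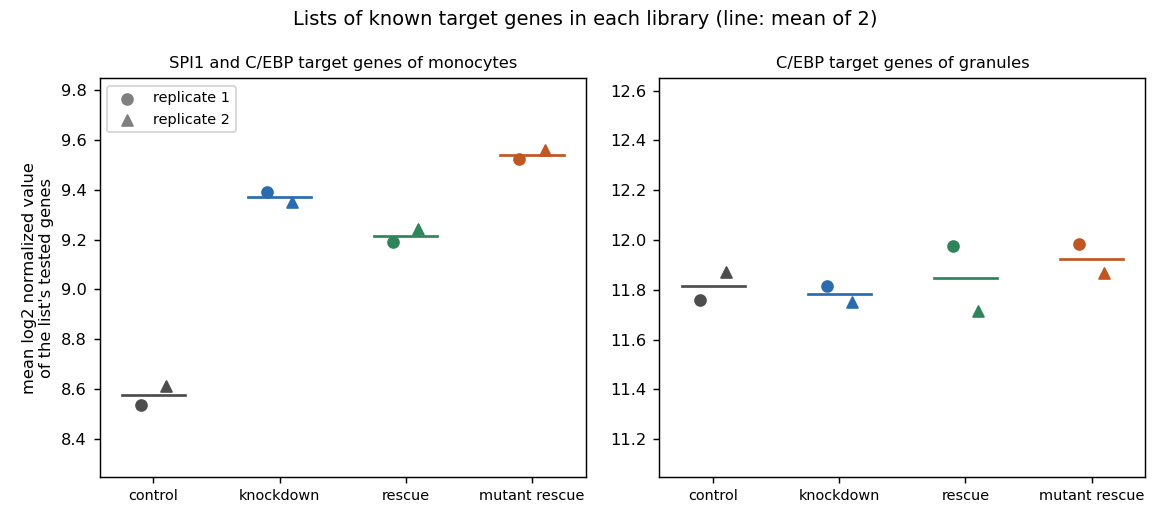
Mean log2 normalized value (vertical axis) of the tested genes of each list of known target genes in the 8 libraries, by group (horizontal axis); circles are replicate 1, triangles replicate 2 and lines the mean of 2. The monocyte list runs from 8.54 in a control library to 9.56 in a mutant rescue library with no overlap between groups, and the granule list runs from 11.71 to 11.98, with mutant rescue above knockdown and every other pair of groups overlapping.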

How the data were processed

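Messenger RNA of 8 MOLM13 libraries was compared in 4 groups of 2, taken with their replicate numbers from the titles. The single table was written by getDiffExpression.pl of HOMER, per the file headers, and Trim Galore, kallisto, HOMER and the build GRCh38 are listed, without roles or versions, per the submitters' processing notes. Each library has a column of log2 expression, deposited after normalization by the authors, whose method is not stated. Beside them stand log2 fold changes with p-values and adjusted p-values from a test by the authors, also not described. Depth is unknown, so no counting error can be given. Of the 35370 genes listed, 1 has no symbol, 26 have a number in place of one and 10937 have the same value in all libraries.

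A gene was tested where 2 or more libraries gave it 1 ppm or more of their summed linear values, and the 13030 such genes entered limma 3.58.1 (R 4.3.3), with group means over all 8 libraries, 4 residual degrees of freedom, empirical Bayes with a mean trend and no pseudocount. Benjamini-Hochberg adjusted p under 0.05 over all genes tested was called. The procedure was tested on simulated data. Named were all members, IGF2BP2, up to 4 called genes per list and direction with the smallest adjusted p, and the 3 genes of highest Pearson's r with each member. The members and lists were chosen with earlier results of these data known. Alternatives covered filters, scaling, trend, groups in the fit, the replicate number and each library left out. Figures were drawn with matplotlib 3.10.9.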

Additional observations from a re-analysis of the deposited data

How the results depend on the processing

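The differences of CEBPE from control in knockdown, rescue and mutant rescue kept direction and call under all alternatives run. Genes called of all tested, in place of 1667, 553, 1473, 1370, 936 and 3241 (knockdown against control, rescue against knockdown, mutant rescue against knockdown, rescue against mutant rescue, rescue against control and mutant rescue against control), were with no filter on low values 1070 for the first, 573 for the third, 777 for the fourth and 610 for the fifth. Quantile normalization gave 717 for the third. Fits of only the 2 groups compared gave 2620, 1246, 279, 192 and 1793 for the first, the second, the third, the fourth and the sixth. With 1 library left out the counts ran from 179 to 2359, 176 to 864, 79 to 2801, 241 to 2870, 361 to 1422 and 1440 to 3953 in the same order.

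Members called, in place of 1, 0, 1, 1, 1 and 2, were 1 for the sixth with no filter, 0 for the third and 2 for the fourth with median-centred libraries, and 0 for the third and the fourth in fits of only the 2 groups. With 1 library left out they stayed at 1, 0 and 1 for the first, the second and the fifth, and ran from 0 to 3, 0 to 4 and 1 to 4 for the third, the fourth and the sixth. With the replicate number as a block, 2 members were called for the third and 2 for the fourth, where CEBPA had adjusted p = 0.0468 and 0.0340 by limma, and all genes called were 1787, 592, 1805, 1765, 1010 and 3541. The numbers were not shown to pair the libraries: the gaps between replicates, over genes, had correlations between groups of -0.0212 to 0.414.

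Signs turned only in differences that had no call. CEBPA in rescue minus control was -0.012 with median-centred libraries and -0.017 after quantile normalization, and CEBPB in mutant rescue minus knockdown was 0.014 after quantile normalization. With 1 library left out, knockdown minus control ran from -0.041 to 0.43 for SPI1, -0.21 to 0.015 for CEBPB, -0.060 to 0.29 for CEBPD and -0.43 to 0.14 for GFI1. Rescue minus knockdown ran from -0.80 to 0.31 for SPI1, -0.23 to 0.33 for CEBPB, -0.87 to 0.0042 for CEBPD, -0.30 to 0.12 for GFI1 and -0.11 to 0.24 for KLF4. Mutant rescue minus knockdown ran from -0.32 to 0.28 for SPI1, -0.20 to 0.012 for CEBPB, -0.25 to 0.22 for RUNX1 and -0.014 to 1.01 for KLF4. Rescue minus mutant rescue ran from -0.78 to 0.33 for SPI1, -0.14 to 0.43 for CEBPB, -0.32 to 0.16 for RUNX1 and -0.94 to 0.080 for KLF4. Rescue minus control ran from -0.61 to 0.50 for SPI1, -0.065 to 0.10 for CEBPA, -0.33 to 0.24 for CEBPB, -0.75 to 0.12 for CEBPD and -0.51 to 0.056 for GFI1. Mutant rescue minus control ran from -0.13 to 0.47 for SPI1 and -0.042 to 0.43 for RUNX1. Where a library left out leaves 1 in its group, that library is assumed to vary like the others. The cause of these shifts was not tested. The deposited values give no depth, and 2 libraries a group limit the precision.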
